A study of Mus musculus with 5 samples.

Results

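The genes described here are the interleukins and the interleukin receptors of sorted embryonic blood-forming cells, chosen by gene symbol (the letters Il followed by a number). Of 17756 genes with a probe set of their own symbol, 72 matched, each with 1 probe set. They comprised 34 ligands, 35 receptor chains and 3 other genes. The others were Il18bp, a soluble protein that binds and neutralizes IL-18, Il4i1, an amino acid oxidase, and Il1bos, a noncoding RNA opposite Il1b. Il1rn, the IL-1 receptor antagonist, was counted with the ligands, and the decoy receptors Il1r2, Il13ra2 and Il22ra2 with the receptor chains.

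All 5 arrays held RNA of C57Bl/6 mouse embryo cells at E11.5, from the aorta-gonad-mesonephros (AGM) region, where blood stem cells emerge from the wall of the aorta. The cells had been sorted as VE+CD45+, that is for VE-cadherin and the leukocyte protein CD45, and were kept in serum-containing medium. Cells of the IFNa group (n = 3) were exposed to interferon-alpha (IFNa) for 4 hours, at 0.5 ng/ml. Those of the vehicle group (n = 2) had vehicle alone for an equal time. The labels carry 1 treatment protocol for all samples, which names the interferon, so vehicle is taken from the sample titles and treatment tags. The labels call the replicates biological but do not say how many embryos were pooled, and the sort defines a mixture rather than pure stem cells.

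Interleukins are secreted proteins through which blood and immune cells signal to each other. Most receptors are pairs of chains, a private chain that sets which ligand is bound and a chain shared by several receptors, such as gp130 (Il6st), the common beta chain (Csf2rb) or Il10rb. Class I and class II receptors signal through JAK kinases and STAT factors, whereas receptors of the IL-1 and IL-18 group signal through Myd88 and IRAK kinases. In the embryo, IL-3 is known as a growth factor that increases stem cell numbers in AGM cultures. Type I interferon is known to act on several interleukin genes in other cells, among them Il15, Il15ra, Il18bp, Il10 and Il1rn.

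Signals are RMA values on the log2 scale, in which 1 unit is a 2-fold difference. The table has no detection calls, so each gene was placed by where its signals lay among all values of all genes, whose 20th percentile was 3.35, median 5.28 and 75th percentile 7.64. Probe sets differ in how well they bind, so these bands say which rows carried signal and do not order transcripts by abundance. Pearson's r between arrays, across genes, ran from 0.924 to 0.955 for arrays of the same group and from 0.892 to 0.933 for arrays of different groups. The sort genes Cdh5 (6.23 to 9.20) and Ptprc (5.35 to 8.95) were above the median on every array, and 9 of 10 macrophage markers were above the 75th percentile on every array. In bulk RNA, fewer cells of a type and less RNA per cell cannot be told apart.

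Most ligands lay in the lower bands, and the receptor chains were spread over them more evenly. Of the 34 ligands, 22 (64.7%) lay below the median on every array and 7 (20.6%) above it on every array. Of the 35 receptor chains, 13 (37.1%) lay below the median on every array and 13 (37.1%) above it on every array, against 38.5% and 40.0% of all genes. Above the 75th percentile on all 5 arrays stood 2 ligands, Il1b and Il1rn, and 6 receptor chains, Il17ra, Il13ra1, Il6st, Il6ra, Il4ra and Il10rb. Between the median and that level stood the ligands Il1a, Il18, Il15, Il13 and Il16 and the chains Il12rb2, Il10ra, Il21r, Il1rl2, Il18rap, Il7r and Il17rc, which crossed the 75th percentile on some arrays or on none. Below the 20th percentile on every array were 8 ligands (Il3, Il17a, Il17d, Il21, Il31, Il34, Il1f5 and Il1f8) and 2 receptor chains (Il2ra and Il1rapl1), and these rows can show little of a difference.

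**Figure D1:**
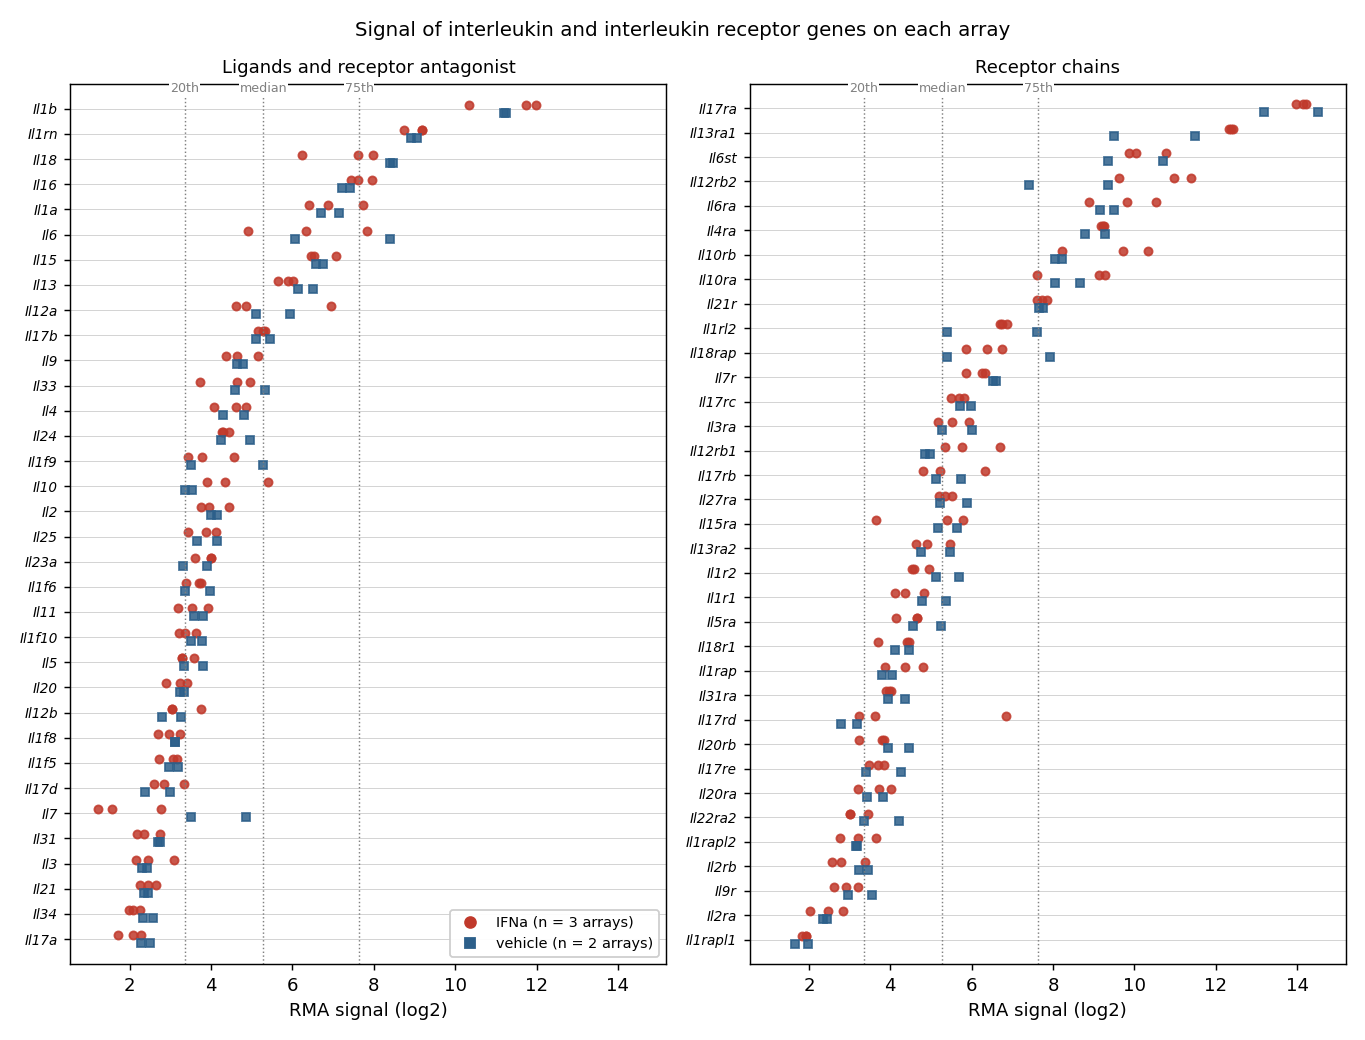
Signal (log2 RMA value, x axis) of each ligand (left) and each receptor chain (right) on every array, ordered by the mean; circles are the 3 IFNa arrays, squares the 2 vehicle arrays, and dotted lines mark the 20th percentile, median and 75th percentile of all values. Most ligands lie left of the median line at 5.28, whereas Il1b, Il1rn and 6 receptor chains lie right of the 75th percentile at 7.64 on every array.

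Both ligands above the 75th percentile on every array belong to the IL-1 group. Il1b, the main secreted form of IL-1, read 11.74, 11.99 and 10.35 on the IFNa arrays and 11.24 and 11.21 on the vehicle arrays. Its antagonist Il1rn read 9.18, 9.19 and 8.75 with IFNa and 9.06 and 8.91 with vehicle. In both genes IFNa replicate 3 was the lowest array and the vehicle arrays lay between the IFNa arrays. Il1a, which is active also as a cell-bound precursor, read 6.41 to 7.72 over all arrays. Casp1, which cleaves the precursors of IL-1 beta and IL-18, read 8.64 to 10.26, and Nlrp3, the sensor that activates it, read 8.14 to 8.98.

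Il1rn sits at the end of a run of IL-1 family genes on mouse chromosome 2, after Il1f8, Il1f9, Il1f6, Il1f5 and Il1f10 in the RefSeq gene table (GRCm38.p6), which encode IL-36 cytokines and their relatives. All 5 of these neighbours stayed below the median on every array (2.69 to 5.28), and Il1rn above the 75th percentile (8.75 to 9.19). Il1a and Il1b, which adjoin each other elsewhere on that chromosome, were both above the median on every array. On chromosome 11, Il13 (5.65 to 6.49) was above the median on every array, and its neighbours Il4 (4.08 to 4.87) and Il5 (3.28 to 3.81) were below it.

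The receptors of the IL-1 group fell in different bands. The signalling receptor Il1r1 read 4.36, 4.11 and 4.82 with IFNa and 4.77 and 5.36 with vehicle, so that 1 vehicle array passed the median. The accessory chain Il1rap, which Il1r1 needs to signal, read 3.81 to 4.82 and was below the median on every array. Of the IL-18 receptor, the binding chain Il18r1 (3.70 to 4.47) was below the median on every array and the accessory chain Il18rap (5.40 to 7.92) above it. The IL-36 receptor Il1rl2 read 5.40 to 7.62, from a probe set of a kind that can match transcripts of more than 1 gene. Myd88, the adaptor of all these receptors, read 7.14 to 8.90.

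For several other receptors both chains carried signal on all arrays. Il6ra and its partner Il6st read 8.88 to 10.52 and 9.36 to 10.78, Il4ra and Il13ra1, which together form a receptor for IL-4 and IL-13, read 8.79 to 9.28 and 9.50 to 12.43, and Il10ra and Il10rb read 7.61 to 9.27 and 8.05 to 10.34. Il17ra, the chain common to the IL-17 receptors, read 13.19 to 14.52, and its partner for IL-17A, Il17rc, read 5.50 to 5.98. The IL-3 receptor chain Il3ra straddled the median at 5.18 to 6.02, beside its signalling partner Csf2rb at 7.98 to 10.79, and Il3 itself read 2.15 to 3.09. The chain shared by the receptors of IL-2, IL-4, IL-7, IL-9, IL-15 and IL-21 (Il2rg) was not analysed here, nor were Il27 and Il1rl1. Of the chains that pair with it, Il21r read 7.60 to 7.86 and Il7r 5.87 to 6.60, while Il2ra, Il2rb and Il9r were below the median on every array.

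IFNa against vehicle asked whether interferon-alpha changed these transcripts after 4 hours. None of the 72 genes passed the threshold (Benjamini-Hochberg adjusted p under 0.05 over all 17756 genes, limma), where 24 genes (0.135%) passed in all, 3 (0.0169%) in the higher and 21 (0.118%) in the lower direction. The smallest adjusted p among them was 0.263, that of Il7. At an unadjusted p under 0.05 in limma stood 4 members, Il13ra1 and Il12rb2 higher and Il7 and Il18bp lower with IFNa, which is 2.78% in each direction against 4.52% of all genes higher and 5.51% lower. The groups did not overlap for 14 members (19.4%), against 25.6% of all genes. These were Il10, Il16, Il13ra1, Il12rb1, Il12rb2 and Il17rd with IFNa above vehicle, and Il7, Il18, Il13, Il34, Il1r2, Il7r, Il20rb and Il18bp with IFNa below. The members' shares were thus below those of all genes.

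The differences of most members were small. Of the 72, 57 (79.2%) had a log2 difference within 0.5 of 0, against 62.6% of all genes, and 9 (12.5%) one beyond 1, against 18.7%. The median difference was -0.07 for the ligands and 0.02 for the receptor chains, against -0.04 for all genes. After repeated quantile normalization these medians were 0.01 and -0.01, so neither has a settled direction. For 46 members the 95% interval ended short of a 2-fold rise, as it did for 9928 of the 17756 genes. For 27 members it lay within 2-fold in both directions, as for 4660 of all genes. For the other members a 2-fold difference was within the interval in at least 1 direction. Among the 20 members above the median on every array these counts were 4 and 0. The intervals within 2-fold thus all came from rows that were not above the median throughout.

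**Figure D2:**
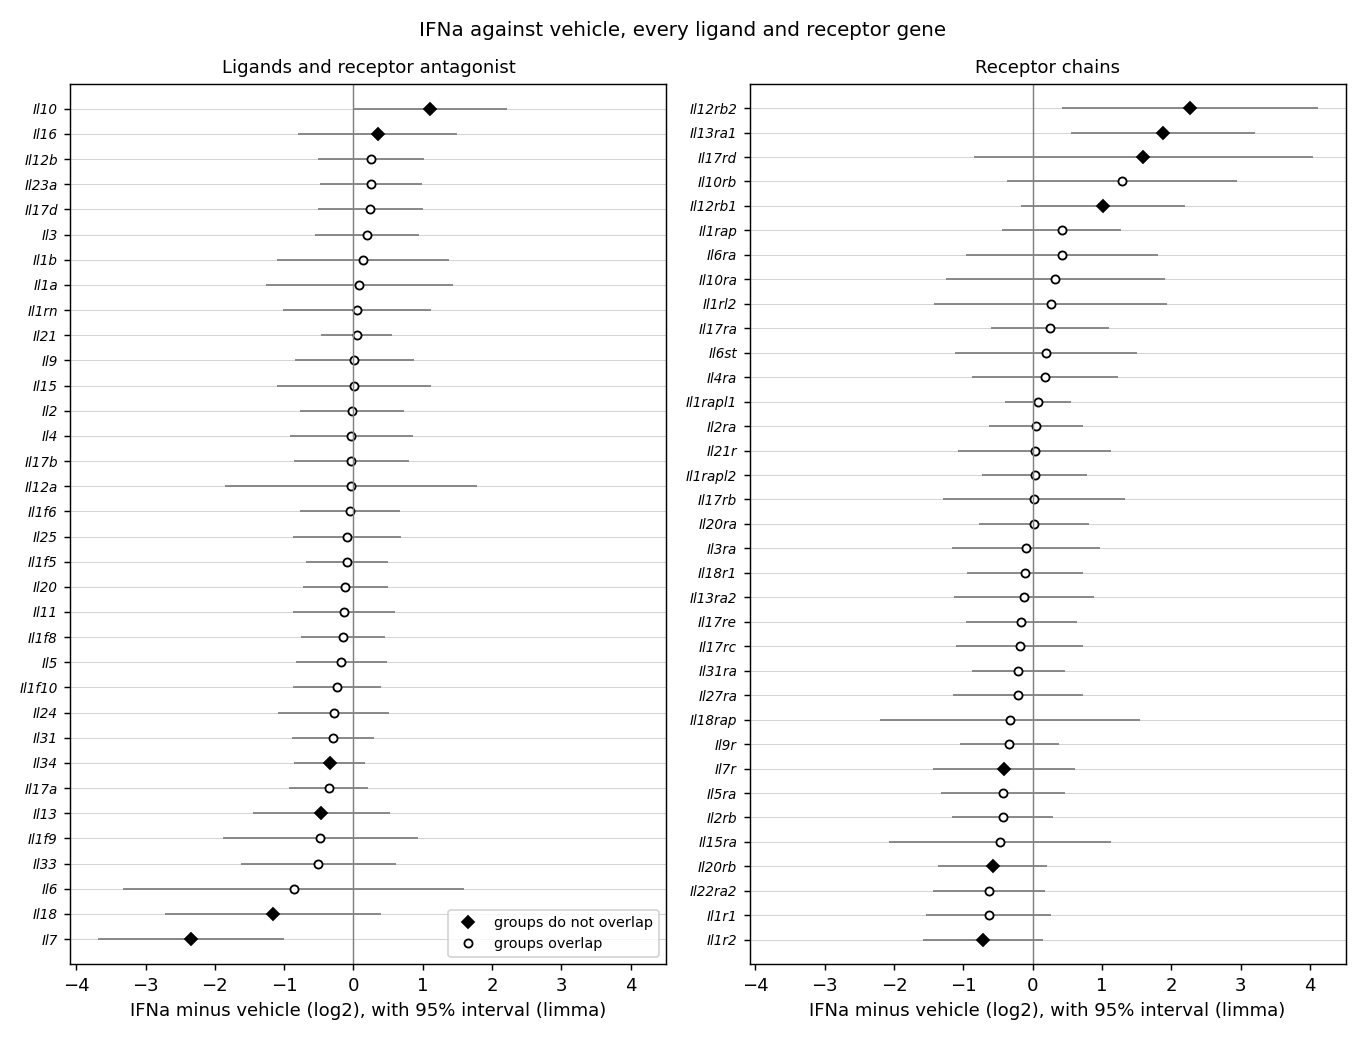
Difference between IFNa and vehicle (log2, x axis) of each ligand (left) and receptor chain (right), with its 95% interval from limma; filled diamonds mark genes whose groups do not overlap and open circles the others. Of the 69 intervals drawn, those of Il13ra1, Il12rb2 and Il7 exclude 0 before adjustment, and none of these genes passed after it.

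Among the ligands, Il7 had the smallest p. Il7, which supports early lymphoid cells, read 1.56, 1.21 and 2.76 on the IFNa arrays and 3.52 and 4.86 on the vehicle arrays. All IFNa arrays were thus below both vehicle arrays, but they were also below the 20th percentile of 3.35, and both vehicle arrays were below the median. The difference was -2.34 ± 0.56 (moderated SE, adjusted p = 0.263, limma). It depended on the low end of the scale and was -0.84 (adjusted p = 0.587, limma) with values floored at the 20th percentile. Its receptor chain Il7r, also the marker of lymphoid progenitors, read 5.87, 6.26 and 6.33 with IFNa and 6.53 and 6.60 with vehicle, a difference of -0.41 ± 0.43. Of 7 measured lymphoid markers, Il7r included, 5 were below the median on every array, among them Cd3e and Rag1.

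Il18 and the gene of its binding protein were both lower on every IFNa array. Il18, a macrophage product that acts on lymphoid cells, read 7.62, 7.99 and 6.23 with IFNa and 8.40 and 8.48 with vehicle, a difference of -1.16 ± 0.65 (adjusted p = 0.642, limma). Il18bp read 4.73, 5.91 and 3.39 with IFNa and 6.17 and 6.84 with vehicle, a difference of -1.83 ± 0.74 (adjusted p = 0.480, limma). IFNa replicate 3 was the lowest array for both genes, and without it the differences were -0.63 and -1.19. The mean signal of the 10 macrophage markers was 10.91 to 11.39 on the IFNa arrays, lowest on IFNa replicate 3, and 11.54 and 11.58 on the vehicle arrays. Timd4 differed most (-2.54 ± 0.91), then Cx3cr1 (-0.95 ± 0.66). Without Timd4 the mean was 11.83, 11.90 and 11.56 with IFNa and 12.03 and 11.78 with vehicle. These overlap, and IFNa replicate 3 is still the lowest. Timd4, Cx3cr1, C1qc, Fcgr1, Mrc1 and Cd68 were each lowest on that array, and Csf1r, C1qa, C1qb and Adgre1 were not. The median difference of the list was -0.07, and 8 of 10 markers differed by less than 0.5. The part of macrophage RNA in these differences was not tested.

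Il10, the anti-inflammatory cytokine, lay the other way. It read 5.39, 4.34 and 3.90 with IFNa and 3.36 and 3.52 with vehicle, so that every IFNa array was above both vehicle arrays while only IFNa replicate 1 passed the median. The difference was 1.10 ± 0.46, with an interval of -0.0048 to 2.21 and an adjusted p of 0.499 in limma. Of the 5 measured interleukin genes that type I interferon is known to act on, 0 passed the threshold. Il18bp alone had an unadjusted p under 0.05, in the lower direction (limma). Il15 differed by 0.01 ± 0.46 and read 6.44 to 7.08 on all arrays. Il1rn differed by 0.05 ± 0.45 and Il15ra by -0.47 ± 0.67. Il15ra read 5.38 and 5.80 on IFNa replicates 1 and 2 and 3.64 on IFNa replicate 3, against 5.17 and 5.65 with vehicle.

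For Il1b, Il1a, Il6, Il12a, Il12b and Il33 the groups overlapped. Il1b differed by 0.14 ± 0.52, with an interval of -1.11 to 1.38, and Il1a by 0.08 ± 0.57. Il6 varied widely in both groups, at 4.90, 6.34 and 7.84 with IFNa and 8.39 and 6.05 with vehicle, so that its difference of -0.86 ± 1.03 says little. Il12a, the p35 subunit of IL-12, read 6.95 on IFNa replicate 3 and 4.61 to 5.93 elsewhere, a difference of -0.04 ± 0.76. Il12b, the p40 subunit of IL-12 and IL-23, differed by 0.25 ± 0.32 from signals between 2.80 and 3.76. Il33, an alarm signal of endothelial and stromal cells, differed by -0.50 ± 0.47 between 3.74 and 5.32. Il16, a CD4-binding attractant, was higher on every IFNa array by a small amount, 7.96, 7.43 and 7.60 against 7.21 and 7.42, with a difference of 0.35 ± 0.48. For Il13 all IFNa arrays were below both vehicle arrays, at a difference of -0.46 ± 0.41. Il34, a ligand of the CSF1 receptor, was dim on all arrays (1.98 to 2.58), and Il3 differed by 0.20 ± 0.31.

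Of the 4 receptor chains with every IFNa array above vehicle, Il13ra1 and both chains of the IL-12 receptor were 3. Il13ra1 read 12.33, 12.36 and 12.43 on the IFNa arrays, nearly the same value each time, and 11.48 and 9.50 on the vehicle arrays. The difference was 1.89 ± 0.56, or 3.69-fold (adjusted p = 0.351, limma). The vehicle arrays were thus far apart. Leaving out vehicle replicate 2 gave 2.87, and leaving out vehicle replicate 3 gave 0.90, each with a lone vehicle array left. Il4ra, its partner, read 9.25, 9.22 and 9.18 with IFNa and 8.79 and 9.28 with vehicle, a difference of 0.18 ± 0.44.

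Il12rb2, the chain that gives the IL-12 receptor its STAT4 signal, read 10.98, 9.62 and 11.38 with IFNa and 9.36 and 7.41 with vehicle. Its difference was 2.27 ± 0.77, or 4.84-fold (adjusted p = 0.402, limma), with 1.30 once vehicle replicate 3 was left out and 3.25 once vehicle replicate 2 was. Il12rb1, shared by the IL-12 and IL-23 receptors, read 5.34, 5.76 and 6.69 with IFNa and 4.85 and 4.98 with vehicle. Its difference was 1.01 ± 0.50 (adjusted p = 0.570, limma). In both genes IFNa replicate 3 was the highest array, and no IFNa array overlapped the vehicle arrays, although in Il12rb2 IFNa replicate 2 (9.62) was close to vehicle replicate 2 (9.36).

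The remaining receptor chains gave smaller or less even differences. Il10rb, which also serves the receptor of the lambda interferons, read 9.72, 8.23 and 10.34 with IFNa and 8.23 and 8.05 with vehicle, a difference of 1.29 ± 0.70 (adjusted p = 0.621, limma) in which IFNa replicate 2 sat with the vehicle arrays. Il10ra differed by 0.33 ± 0.66. Il17rd, a relative of the IL-17 receptors that dampens fibroblast growth factor signals, rested on 1 array, with 6.84 on IFNa replicate 3 and 2.78 to 3.63 elsewhere. Its difference was 1.59 ± 1.02, and 0.46 without that array. The decoy receptor Il1r2 was lower on every IFNa array (4.54, 4.59 and 4.95 against 5.68 and 5.12), by -0.71 ± 0.36, and Il20rb, a chain of the IL-20 and IL-24 receptors, likewise at -0.57 ± 0.33. Il1r1 differed by -0.64 ± 0.38 and Il1rap by 0.42 ± 0.36. Il6ra (0.42 ± 0.58), Il6st (0.19 ± 0.55), Il17ra (0.25 ± 0.36), Il3ra (-0.10 ± 0.45) and Il21r (0.03 ± 0.46) were close to 0 relative to their errors. For Il17ra and Il6st the vehicle arrays were farther apart than the IFNa arrays, and read 13.19 and 14.52 for Il17ra and 9.36 and 10.71 for Il6st.

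**Figure D3:**
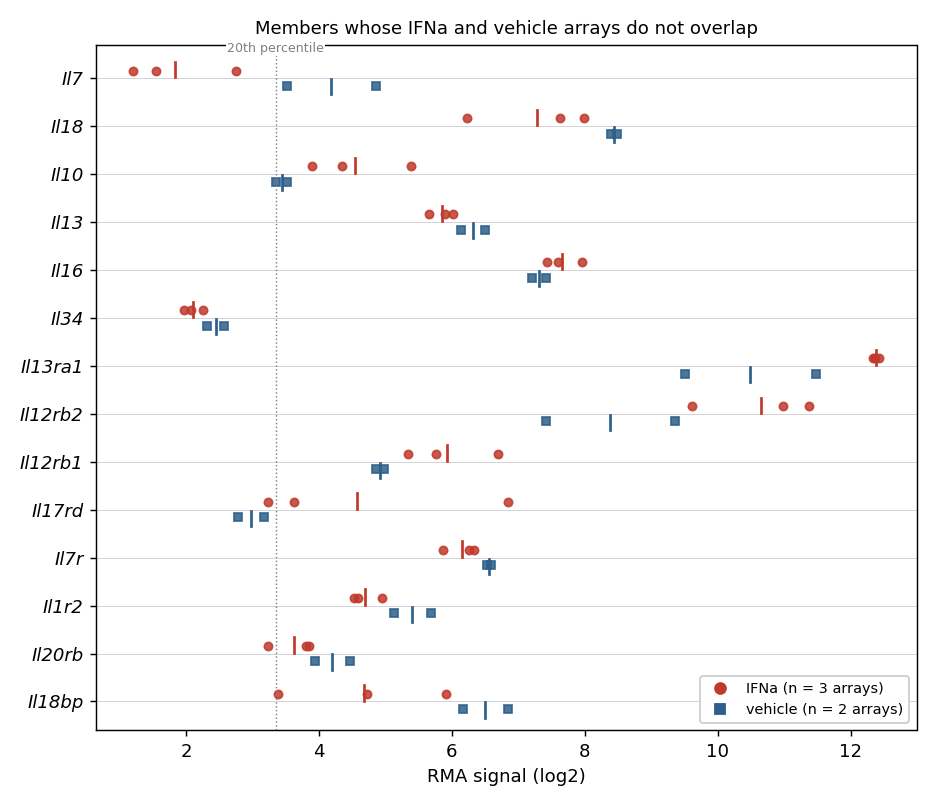
Signal (log2 RMA value, x axis) of the 14 members whose IFNa and vehicle arrays do not overlap; circles are the 3 IFNa arrays, squares the 2 vehicle arrays, short vertical lines the group means, and the dotted line the 20th percentile of all values. The 3 IFNa arrays of Il13ra1 lie between 12.33 and 12.43, those of Il7 lie left of the dotted line, and Il17rd is separated mainly by its array at 6.84.

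Promoters were examined for the interferon-stimulated response element, searched as GAAA, any 2 bases and GAAA on both strands, and for the gamma-activated site to which STAT dimers bind, searched as TTC, any 3 bases and GAA, which reads the same on both strands and can overlap the other motif. RefSeq promoter windows of 300 bases (250 before to 50 after a transcript start, GRCm38.p6) were found for 56 of the 72 members, in 69 windows. The response element was in 2 of the 69 (2.90%), against 3.44% of all 32851 windows, and these belonged to Il4 and Il1rap. The gamma-activated site was in 10 of the 69 (14.5%), against 8.30% of all windows, and these belonged to Il12rb2, Il7r, Il18r1, Il1r2, Il31ra, Il17d, Il1f5, Il1f9, Il4 and Il1bos. Of the members at an unadjusted p under 0.05, Il13ra1, Il12rb2 and Il18bp had a window. A match is a stretch of letters and not a measured site.

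The windows of these genes are shown with that of Il1b, a ligand above the 75th percentile on every array, and that of Il1rap, which holds a response element match. They are printed 5′ to 3′ on the strand of the gene, and capitals mark the matches. Il13ra1 lies at chrX:36111858-36112157 (plus strand), Il12rb2 at chr6:67376139-67376438 (minus strand), Il18bp at chr7:102018183-102018482 (minus strand), Il1b at chr2:129371090-129371389 (minus strand) and Il1rap at chr16:26581455-26581754 (plus strand).
Il13ra1: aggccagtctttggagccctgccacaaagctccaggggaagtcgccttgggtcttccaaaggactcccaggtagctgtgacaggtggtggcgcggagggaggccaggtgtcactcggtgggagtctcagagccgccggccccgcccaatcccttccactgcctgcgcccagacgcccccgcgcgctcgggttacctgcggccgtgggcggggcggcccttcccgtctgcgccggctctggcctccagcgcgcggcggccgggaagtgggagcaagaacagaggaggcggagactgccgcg
Il12rb2: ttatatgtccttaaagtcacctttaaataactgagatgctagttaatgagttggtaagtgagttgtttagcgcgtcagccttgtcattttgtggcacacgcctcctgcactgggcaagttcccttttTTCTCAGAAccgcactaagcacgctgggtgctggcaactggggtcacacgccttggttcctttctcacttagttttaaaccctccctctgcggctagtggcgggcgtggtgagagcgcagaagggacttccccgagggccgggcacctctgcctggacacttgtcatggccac
Il18bp: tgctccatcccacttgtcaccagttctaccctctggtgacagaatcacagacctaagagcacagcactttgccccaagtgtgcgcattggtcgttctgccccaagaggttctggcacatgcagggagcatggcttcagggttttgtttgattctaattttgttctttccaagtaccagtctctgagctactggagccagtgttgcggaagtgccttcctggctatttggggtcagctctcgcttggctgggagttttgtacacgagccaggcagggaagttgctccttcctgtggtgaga
Il1b: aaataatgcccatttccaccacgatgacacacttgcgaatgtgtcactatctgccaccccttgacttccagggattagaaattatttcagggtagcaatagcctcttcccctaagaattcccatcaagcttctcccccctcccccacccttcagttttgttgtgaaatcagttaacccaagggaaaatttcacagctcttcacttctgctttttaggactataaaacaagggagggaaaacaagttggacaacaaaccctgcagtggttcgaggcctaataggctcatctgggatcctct
Il1rap: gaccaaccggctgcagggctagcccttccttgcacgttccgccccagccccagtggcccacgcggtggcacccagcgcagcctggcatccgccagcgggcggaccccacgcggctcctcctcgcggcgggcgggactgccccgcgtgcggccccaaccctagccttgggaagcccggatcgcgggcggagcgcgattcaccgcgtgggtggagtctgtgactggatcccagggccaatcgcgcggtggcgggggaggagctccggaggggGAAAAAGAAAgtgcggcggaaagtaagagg
The Il12rb2 window has 1 gamma-activated site match and the Il1rap window 1 response element match, while these letters are not in the windows of Il13ra1, Il18bp and Il1b.

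The genes that carry interleukin signals into the cell were listed separately, and 38 of 41 were measured. None passed the threshold in limma. At an unadjusted p under 0.05 stood 6 in the higher direction (15.8%, against 4.52% of all genes) and 1 in the lower (2.63%, against 5.51%), and the median difference of the list was -0.02. The 6 were the STAT genes Stat4, Stat5b and Stat6, the feedback inhibitor Socs2, and the receptor chains Csf2rb and Csf2ra, and the 1 was Lif, a gp130 ligand. This list was drawn up with other results of these data known, so its count is a description.

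Socs2, a STAT5 target that restrains cytokine receptors, had the smallest p of the list. It read 5.88, 5.47 and 5.79 with IFNa and 3.75 and 3.49 with vehicle, a difference of 2.09 ± 0.33 (adjusted p = 0.126, limma), and it ranged from 1.96 to 2.22 when each array was left out in turn. Stat5b read 8.01, 8.81 and 9.20 with IFNa and 5.98 and 5.86 with vehicle, a difference of 2.75 ± 0.55 (adjusted p = 0.193, limma). Cish, another STAT5 target, was higher on all IFNa arrays than on both vehicle arrays, by 1.07 ± 0.46. For Stat5a the groups overlapped, at 9.43, 9.69 and 8.77 with IFNa and 9.37 and 6.28 with vehicle. Its difference was 1.47 ± 0.92, and -0.07 without vehicle replicate 3. Stat6, the factor of IL-4 and IL-13 receptors, read 11.45 to 12.49 on the IFNa arrays and 9.89 and 10.22 on the vehicle arrays, a difference of 1.76 ± 0.42 (adjusted p = 0.263, limma). Stat4, the factor of the IL-12 receptor, read 7.22, 9.17 and 6.71 with IFNa and 4.89 and 5.27 with vehicle, a difference of 2.62 ± 0.78 (adjusted p = 0.358, limma). Every IFNa array was thus above both vehicle arrays for Stat4, Stat6, Il12rb1, Il12rb2 and Il13ra1, as for 2043 of the 17756 genes. These receptor and STAT genes come from separate lists and were not tested as a set. None of these named genes passed the threshold. The groups overlapped for Il4ra (0.18 ± 0.44), the decoy receptor Il13ra2 (-0.12 ± 0.42) and the JAK kinase Tyk2 (-0.0033 ± 0.59).

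The common beta chain Csf2rb, which signals for IL-3, IL-5 and GM-CSF, read 10.39, 10.45 and 10.79 with IFNa and 9.62 and 7.98 with vehicle, a difference of 1.74 ± 0.57 (adjusted p = 0.384, limma) that was 0.92 without vehicle replicate 3. Its close copy Csf2rb2 lay the other way at -0.93 ± 0.63, and since these genes are similar in sequence their signals are uncertain. Csf2ra, the GM-CSF binding chain, read 9.86, 7.92 and 10.63 with IFNa and 6.97 and 7.02 with vehicle, a difference of 2.47 ± 0.83. Stat3, the main factor of IL-6 and IL-10 receptors, was lower on all IFNa arrays (5.14, 3.59 and 5.21) than on the vehicle arrays (5.91 and 5.35), by a difference of -0.98 ± 0.57. Socs3, its feedback inhibitor, was higher on every IFNa array (10.24, 9.86 and 9.69 against 8.91 and 9.30), by 0.82 ± 0.43. Jak1 (-0.10 ± 0.42), Casp1 (0.31 ± 0.60) and Myd88 (-0.53 ± 0.61) overlapped between the groups.

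**Figure D4:**
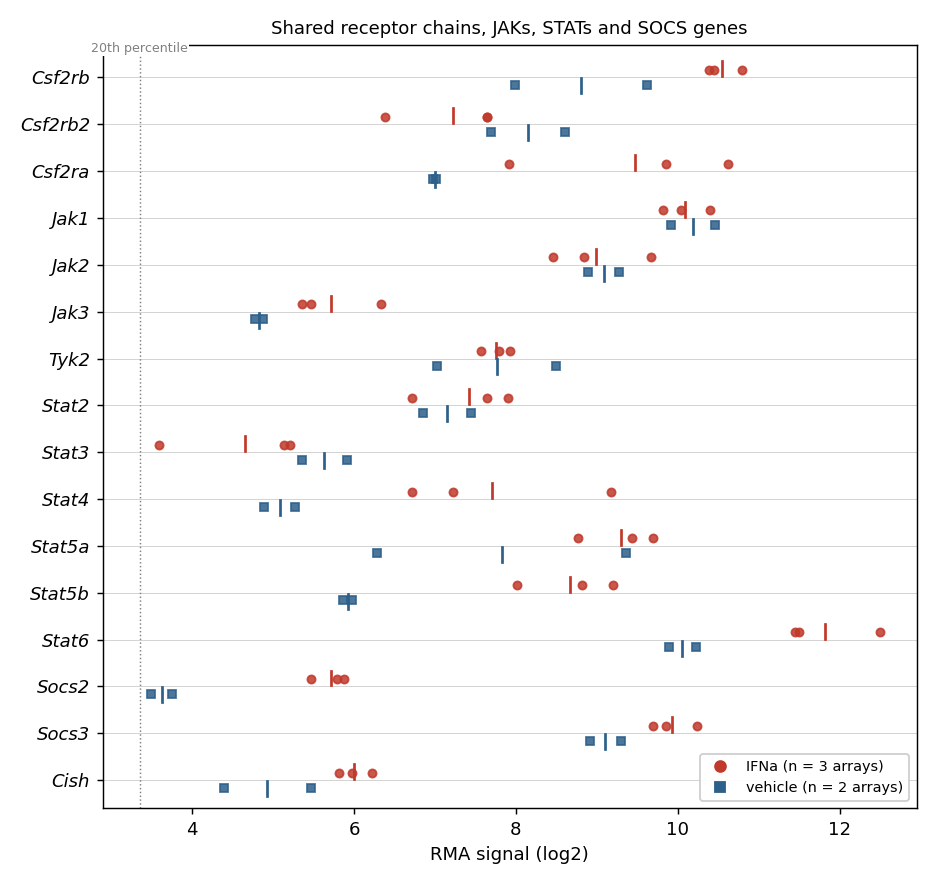
Signal (log2 RMA value, x axis) of shared receptor chains, JAK kinases, STAT factors and SOCS genes on every array; circles are the 3 IFNa arrays, squares the 2 vehicle arrays, short vertical lines the group means, and the dotted line the 20th percentile of all values. Socs2, Stat4, Stat5b and Stat6 show IFNa arrays above both vehicle arrays, Stat3 and Csf2rb2 below, and none passed the threshold.

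Markers of progenitors and of other cells varied between arrays as well, in both directions. The mean of 6 granulocyte and monocyte progenitor markers was 8.22, 9.20 and 7.53 with IFNa and 7.37 and 7.55 with vehicle, where IFNa replicate 3 overlapped the vehicle arrays. Among them S100a8 ran from 7.87 to 14.59, while Elane and Ctsg were below the median on every array. Mpo, Prtn3, S100a8 and S100a9 were each highest on IFNa replicate 2, as were Stat4 and Stat6, and Elane, Ctsg and Stat5b were not. The mean of 6 mast cell markers was 5.25 to 5.90 and 4.91 to 5.60. The sort gene Ptprc read 5.85, 7.03 and 5.35 with IFNa and 7.23 and 8.95 with vehicle, a difference of -2.02 ± 0.75 (adjusted p = 0.441, limma). Cd34, a stem cell and endothelial surface protein, was lower on all IFNa arrays (5.48, 6.76 and 5.02) than with vehicle (8.53 and 8.20), by -2.61 ± 0.63 (adjusted p = 0.268, limma). Of the 7 stem and progenitor markers, Ptprc and Cd34 included, 3 differed below 0 and 4 above, with a median of 0.16. Gfi1 (2.67 ± 1.39) and Kit (1.66 ± 0.97) were among those above. Tek, an endothelial receptor, read 8.75, 8.56 and 8.16 with IFNa and 7.41 and 5.28 with vehicle, a difference of 2.15 ± 0.72 (adjusted p = 0.394, limma). The other endothelial markers did not follow it. Of the 6 measured, 4 differed below 0, among them Pecam1 (-1.31 ± 0.71) and Cdh5 (-0.95 ± 0.96), and the median was -0.25. The 5 mesenchymal markers had a median difference of 1.38, and 4 of them were beyond 1, of which Acta2 lay in the lower direction (-2.04 ± 0.81). Among them Col1a2, a fibrillar collagen, read 7.59, 4.91 and 7.80 with IFNa and 5.29 and 5.23 with vehicle, so that IFNa replicates 1 and 3 were high and replicate 2 was not, as in Il10rb, while in Il12rb2 and Csf2ra replicate 2 was the lowest IFNa array. The progenitor marker Kit had that order as well, at 7.56, 4.15 and 6.92 against 4.64 and 4.45. The mesenchymal marker Pdgfrb did not, at 7.41, 5.95 and 6.06 against 3.54 and 6.46. The part of these shifts in the differences of Il13ra1, Il10rb, the IL-12 receptor chains, Csf2ra and the STAT genes was not tested.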

How the data were processed

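Gene expression in 5 samples was measured on Affymetrix arrays after NuGen amplification, per the labels' protocols. The submitters' processing notes name RMA for the deposited log2 signals, a method in which background is corrected, arrays are normalized and probe sets summarised by the authors' software. For that software, name and settings were not given in the sources used here. Values ran from -1.95 to 15.6 and array medians from 4.98 to 5.15. RMA does not usually give values below 0, so the low end of the scale is uncertain.

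Of 20881 rows, 17838 carried 1 gene symbol in the platform annotation, and for 81 genes with several rows the row with the highest mean was used, which left 17756 genes. All 72 members had the same symbol in RefSeq's gene table. IFNa (n = 3) and vehicle (n = 2) were taken from the titles and compared with limma 3.58.1 in R 4.3.3 (lmFit, eBayes with a mean-variance trend, two-sided, Benjamini-Hochberg over all genes). Errors are moderated SEs. The fit was tested on simulated data whose changes were larger than the difference of any member. That test does not show whether smaller changes would be found.

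The members and lists were chosen with earlier results of these data known. Genes were named by rule: an unadjusted p under 0.05, signals above the 75th percentile on all arrays, the 3 smallest p and the 3 largest ranges among ligands and among receptors, 29 genes fixed by name (26 with a row), and signalling genes by p and by name. Other named genes were chosen after their values were seen. Alternatives were the mean of all rows, a filter on dim genes, a floor, no variance trend, repeated quantile normalization, median centring, array weights, a replicate block and each array left out. With so few arrays, their number limits the precision. Protein features of the members were not analysed here.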

Additional observations from a re-analysis of the deposited data

How the results depend on the processing

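None of the 72 members passed the threshold in limma under any setting that kept all arrays. With each array left out in turn 0 to 1 members were called, Il13ra1 without vehicle replicate 2, and 0 to 1 signalling genes, Clcf1 without vehicle replicate 3 (-2.46, adjusted p = 0.0139, limma). The number of members at an unadjusted p under 0.05 in limma was 4 in the main fit. It was 3 with dim genes left out, 3 with no variance trend, and 2 with the floor, at which 10 members lay on every array. The counts over all genes were 1781 in the main fit and 1056, 1794 and 1463 under these settings, in that order. Leaving out dim genes and the floor also left fewer genes to fit. With each array left out the median difference ranged from -0.19 to 0.036 for the ligands and from -0.20 to 0.067 for the receptor chains. Both groups have a replicate 2 and a replicate 3. Deviations from the group means correlated at 0.0024 between the arrays numbered 2 and at 0.043 between those numbered 3, so the numbers are not read as pairs. The replicate block, which leaves IFNa replicate 1 without a say, called 0 members and 0 of all genes. At an unadjusted p under 0.05 in limma it had 3 members and 1441 of all genes.

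Of 41 named genes, 25 kept their sign under every alternative in which they were fitted, which were 11 to 13. Differences near 0 changed sign with repeated quantile normalization (Il12a 0.064, Il15 -0.080, Il1a -0.00060, Il1b -0.13, Il1rn -0.22, Il21r -0.14, Il4ra -0.094 and Il6st -0.088), with median centring (Il12a 0.044) and with the replicate block (Il12a 0.27, Il1a -0.28, Il1b -0.056, Il1rn -0.018 and Il6st -0.081). With each array left out, 16 genes changed sign at least once, with ranges of Casp1 -0.50 to 1.12, Il12a -0.78 to 0.39, Il15 -0.18 to 0.13, Il15ra -0.90 to 0.18, Il17ra -0.42 to 0.91, Il1a -0.28 to 0.38, Il1b -0.18 to 0.64, Il1rn -0.024 to 0.20, Il21r -0.036 to 0.094, Il3 -0.070 to 0.40, Il3ra -0.47 to 0.27, Il4ra -0.062 to 0.43, Il6 -2.03 to 0.30, Il6st -0.48 to 0.87, Jak1 -0.38 to 0.17 and Myd88 -1.14 to 0.079. Il7 shrank under the floor. The causes were not tested. All genes' median difference was -0.04, and -0.10 without vehicle replicate 2, but 0.035 without vehicle replicate 3, 0.039 with median centring, 0.022 with repeated quantile normalization and 0.084 with dim genes left out. Signal near the low end of the scale, with no detection calls, limits what dim ligands can show.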
